A study of Neurospora crassa with 14 samples.

Results

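The 5 genes described here encode the enzymes that make the orange carotenoid pigment of the filamentous fungus Neurospora crassa: al-3 (NCU01427), al-2 (NCU00585), al-1 (NCU00552), cao-2 (NCU11424) and ylo-1 (NCU04013). They were chosen by their place in the pathway and identifier, with earlier results of these data known. All 5 stand in each of the 5 comparison tables, among 9380 genes that the tables share, of 9552 genes in any of them. Their identifiers and symbols match in assembly NC12. The study sequenced mRNA from mycelium of 7 groups with 2 libraries each. Wild type and strains deleted for sds3, rlp1, rlp2 or eaf-3 form a set of 10 libraries, in which the libraries of a group come from 2 different strains. The other 4 libraries come from a single his-3 strain that carries pNCU05173::hph and pNCU07152::nat-1, with the resistance markers hph and nat-1. It received 5 ul or 0 ul of Trichostatin A (TSA), an inhibitor of histone deacetylases, and its libraries are named biological replicates in the labels. No wild type without the markers was treated with TSA in the samples used here. Liquid cultures in minimal medium with 1.5% sucrose, and with histidine for the his-3 strain, were grown with shaking at 32 °C for 16 h. The labels do not say whether the cultures were kept in light or darkness.

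Carotenoid synthesis starts when the al-3 product, geranylgeranyl diphosphate synthase, extends an isoprenoid precursor. The al-2 product joins this into phytoene and later closes the ring of the coloured intermediate, and the al-1 product, phytoene desaturase, introduces the double bonds that give colour. The cao-2 product, a carotenoid oxygenase, then cleaves torulene, and the ylo-1 product, an aldehyde dehydrogenase, oxidises the result to neurosporaxanthin. In Neurospora mycelium the al genes are classic light-induced genes under the White Collar photoreceptor complex, and conidia, the asexual spores, are pigmented as well. The study asked how transcription changes in mutants of the RPD3L and RPD3S histone deacetylase complexes, which in yeast share the Rpd3 deacetylase and differ in their other subunits.

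The tables hold, for each comparison, the authors' average signal, log2 fold change, p-value and adjusted p for every gene, and no value per library, so that neither the libraries behind a value nor their depth can be shown. In what follows ± is a standard error computed back from the deposited p-value, intervals are normal 95% intervals, and "rose" or "fell" requires a deposited adjusted p under 0.05. The 4 deletion comparisons share their wild type libraries and are not independent of each other. Nothing in the labels says that the 2 strains of a group came from separate crosses or days, so p-values measure the spread between these samples. The standard error of a gene was nearly the same in all 4 deletion comparisons (0.421 to 0.423 for al-1, 0.231 for ylo-1). It thus does not show how far the 2 libraries of a single deletion group agree. Each deleted gene was read in its own comparison: the authors' deposited tables put eaf-3 at -8.95 ± 1.48 and rlp2 at -2.95 ± 0.32 on the log2 scale, but rlp1 at -1.03 ± 0.33 and sds3 at -0.76 ± 0.19, or 49.0% and 58.9% of wild type. The falls of rlp1 and sds3 were thus partial, and the sds3 and rlp1 groups below are the libraries labelled as these deletions. In the eaf-3 group rlp1 stood at 59.3% of wild type (-0.75 ± 0.32, adjusted p = 0.0596), which did not pass. In the rlp1 group rlp2 rose by 1.19 ± 0.28 (adjusted p = 0.000412) in the authors' deposited tables.

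Before any fold change, the level of each gene can be set out for the 5 groups of the deletion set. Group levels were computed from the deposited average and the 4 fold changes, taking the average as the mean over the 10 libraries, which the files do not state, and are called implied levels (in units of normalized signal). They carry no error of their own. For al-1 the implied level was 518 in wild type and 515 in the eaf-3 group, against 2885 in the rlp2 group, 15903 in the sds3 group and 22912 in the rlp1 group. The desaturase gene was thus low in wild type and eaf-3 and high in the other groups. For al-2 the implied levels were 872 in wild type, 1195 in eaf-3, 3164 in rlp2, 9446 in sds3 and 11209 in rlp1. For al-3 they were 997 in wild type, 927 in eaf-3, 1585 in rlp2, 2677 in sds3 and 4095 in rlp1, a narrower span. The oxygenase gene cao-2 had the order of groups seen for al-2, with 422 in wild type, 952 in eaf-3, 1391 in rlp2, 2414 in sds3 and 2773 in rlp1. For ylo-1 wild type was the highest group, at an implied level of 2487, and the deletion groups lay between 1484 (rlp1) and 1734 (rlp2). From the lowest to the highest group the implied level differed by 44.5 times for al-1, 12.8 times for al-2, 6.57 times for cao-2, 4.42 times for al-3 and 1.68 times for ylo-1.

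Divided by gene length, the levels can also be compared between the 5 enzymes. In wild type the implied level per kb was highest for ylo-1, at 792, followed by al-3 (362), al-2 (261), al-1 (204) and cao-2 (172). The order differed in the rlp1 group, where al-1 stood at 9024 per kb, al-2 at 3356, al-3 at 1484, cao-2 at 1132 and ylo-1 at 473. The last enzyme of the pathway went from the most to the least abundant transcript of the 5 on this scale. In the eaf-3 group ylo-1 (517 per kb) lay above cao-2 (389), al-2 (358), al-3 (336) and al-1 (203). Lengths are those of the gene models of assembly NC12, introns included, and differences between genes on this scale were not tested.

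**Figure D1:**
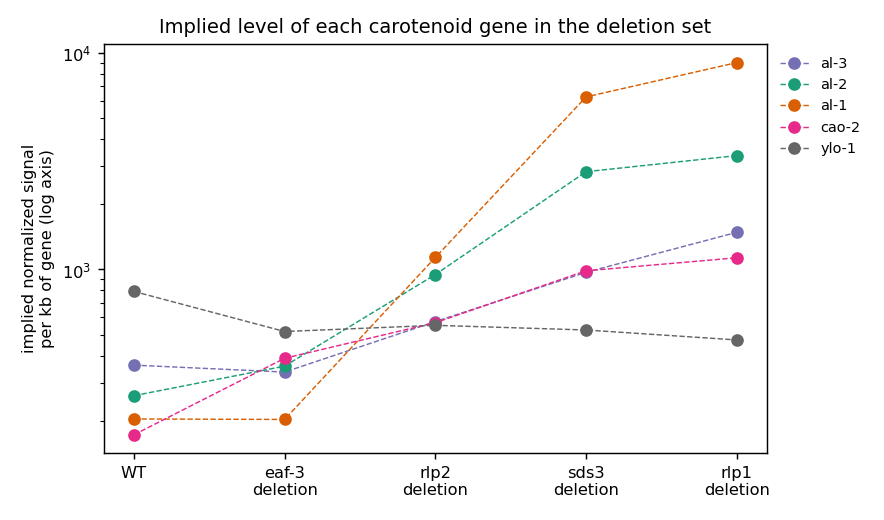
Implied normalized signal per kb of gene (log axis) of the 5 carotenoid genes in wild type and the 4 deletion groups, 1 point per gene and group, with dashed lines joining the points of a gene. The al-1 points span 203 to 9024 per kb, while the ylo-1 points stay between 473 and 792.

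The sds3 deletion was compared with wild type to ask which genes this subunit affects. Transcripts of the first enzymes of the pathway rose and that of the last fell. The authors' deposited table shows that al-2 rose by 3.44 ± 0.39 on the log2 scale (adjusted p = 3.73e-16), or 10.8 times (6.33 to 18.5), and al-3 by 1.42 ± 0.25 (adjusted p = 2.82e-07), or 2.68 times (1.91 to 3.77). By the same authors' deposited table al-1 rose 30.7 times (17.3 to 54.4; adjusted p = 3.28e-29) and cao-2 rose 5.72 times (4.40 to 7.43; adjusted p = 4.71e-36). The aldehyde dehydrogenase gene ylo-1 fell by 0.59 ± 0.23 (adjusted p = 0.0332), to 66.4% of wild type (48.5% to 90.9%), in the authors' deposited table. All 5 genes thus passed the test, 4 higher and 1 lower, where 19.0% of all genes tested rose and 15.7% fell. The median of the 5 was 2.52 and that of all genes 0.07. The standard error of cao-2 was the smallest of the 5, and by p-value this gene ranked 10 among the 9109.

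In the rlp1 group the same 4 genes rose and ylo-1 fell. The authors' deposited table gives a rise of 3.68 ± 0.39 for al-2 (adjusted p = 1.92e-18), or 12.8 times (7.52 to 22.0), and of 2.04 ± 0.25 for al-3 (adjusted p = 4.68e-14), or 4.11 times (2.92 to 5.77). By the authors' deposited table al-1 rose 44.2 times (25.0 to 78.4; adjusted p = 1.12e-35). The oxygenase gene cao-2 rose 6.57 times (5.06 to 8.53; adjusted p = 2.79e-42) in the authors' deposited table, which placed it at rank 7 by p-value among 8925 genes. The pathway's last gene, ylo-1, fell by 0.74 ± 0.23 (adjusted p = 0.00909), to 59.7% of wild type (43.6% to 81.7%), in the authors' deposited table. Of all genes tested in this comparison 14.6% rose and 8.61% fell. The median of the 5 genes was 2.72 against 0.01 for all genes.

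In the rlp2 group the rises were smaller, and 3 of the 5 genes passed the test. The cyclase gene al-2 rose by 1.86 ± 0.39 (adjusted p = 0.000107), or 3.63 times (2.12 to 6.20), in the authors' deposited table. By the authors' deposited table al-1 rose 5.57 times (3.14 to 9.87; adjusted p = 3.80e-07) and cao-2 rose 3.29 times (2.54 to 4.28; adjusted p = 1.77e-16). The synthase gene al-3 stood at 0.67 ± 0.25 (adjusted p = 0.0628) and ylo-1 at -0.52 ± 0.23 (adjusted p = 0.136) in the authors' deposited table, neither past the threshold. Of all genes tested 6.99% rose and 4.02% fell. The median of the 5 genes was 1.72, and that of all genes -0.01.

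The eaf-3 group differed from this picture. The oxygenase gene cao-2 rose, by 1.17 ± 0.19 in the authors' deposited table (adjusted p = 4.19e-08), or 2.26 times (1.73 to 2.94). The aldehyde dehydrogenase gene ylo-1 fell by 0.61 ± 0.23 (adjusted p = 0.0289), to 65.3% of wild type (47.7% to 89.4%), in the authors' deposited table. None of the 3 al genes passed: in the authors' deposited table al-1 stood at -0.01 ± 0.42 (adjusted p = 0.993), al-2 at 0.45 ± 0.40 (adjusted p = 0.401) and al-3 at -0.11 ± 0.25 (adjusted p = 0.782). The intervals ran from 56.0% to 177% of wild type for al-1, from 80.0% to 234% for al-2 and from 66.0% to 131% for al-3. The counts of 1 gene up and 1 down compare with 20.2% of all genes rising and 11.5% falling, and the median of the 5 (-0.01) with 0.07 for all genes. The fold change of cao-2 in this group was above that of 79.7% of all genes tested. With the cut of the authors, which also asks for an absolute log2 fold change over 2, 3 of the 5 genes were higher in sds3, 4 in rlp1, 1 in rlp2 and 0 in eaf-3. Of all genes 5.17%, 4.57%, 2.04% and 10.8% were higher by that cut, in the same order.

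TSA was added to the marked strain to see how inhibition of deacetylases changes transcription. None of the 5 genes passed the test of the authors' deposited table, and 1 of them, ylo-1, had an unadjusted p under 0.05. The values in the authors' deposited table were -0.43 ± 0.42 for al-1 (adjusted p = 0.65), -0.17 ± 0.48 for al-2 (adjusted p = 0.899) and -0.47 ± 0.45 for al-3 (adjusted p = 0.637). The oxygenase gene cao-2 stood at 0.04 ± 0.37 (adjusted p = 0.976) and ylo-1 at -0.53 ± 0.20 (adjusted p = 0.079) in the authors' deposited table. The upper ends of the intervals were 131% of the untreated level for al-1, 171% for al-2, 132% for al-3, 91.1% for ylo-1 and 170% for cao-2. By the cut of the authors 0 of the 5 were higher, against 2.12% of all genes. Of all genes tested 5.15% rose and 3.62% fell with TSA, and the median of all genes was -0.08 against -0.43 for the 5. The average signal of the authors' deposited table was 10250 for al-1, 11582 for al-2, 2723 for al-3, 1820 for ylo-1 and 4413 for cao-2. These averages cover libraries beyond the 4 described here, so that a level for either TSA group could not be had. The TSA table was made from another strain and may have been normalized separately, so its values stand beside those of the deletions and their difference was not tested.

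**Figure D2:**
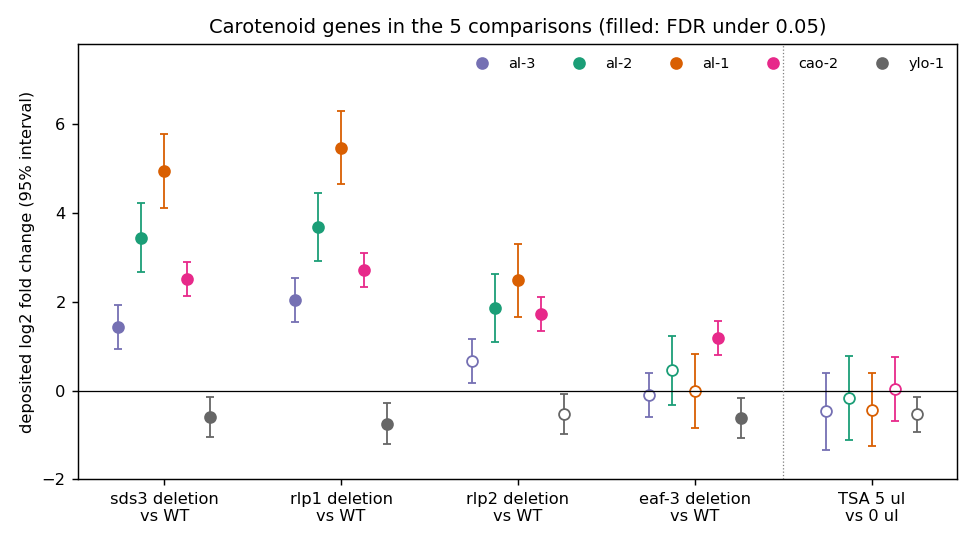
Deposited log2 fold change with its 95% interval for each carotenoid gene in the 5 comparisons, filled points having an adjusted p under 0.05. The al genes and cao-2 lie above 0 in the sds3, rlp1 and rlp2 groups (al-3 in rlp2 is open), ylo-1 lies between -0.74 and -0.52 in every comparison, and no point is filled for TSA.

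Set against all genes, the rises of al-1 lay near the upper end and the falls of ylo-1 within the lower part of the range. The share of genes tested with a lower fold change than al-1 was 98.8% in sds3, 99.1% in rlp1, 98.1% in rlp2, 45.0% in eaf-3 and 25.9% with TSA. For al-2 these shares were 97.1%, 97.9%, 96.6%, 65.6% and 43.2%, in the same order, and for al-3 they were 87.5%, 93.7%, 85.3%, 39.6% and 23.6%. For cao-2 they were 94.9%, 96.1%, 96.1%, 79.7% and 57.7%. The position of ylo-1 ran from 9.88% in rlp1 to 20.4% with TSA. In the sds3, rlp1 and rlp2 groups the order of the fold changes within the pathway was the same: al-1, al-2, cao-2, al-3, ylo-1. These comparisons share their wild type libraries, so the orders are not independent, and differences between genes were not tested. In rlp2, al-2 (1.86 ± 0.39) and cao-2 (1.72 ± 0.19) lay within their errors of each other.

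**Figure D3:**
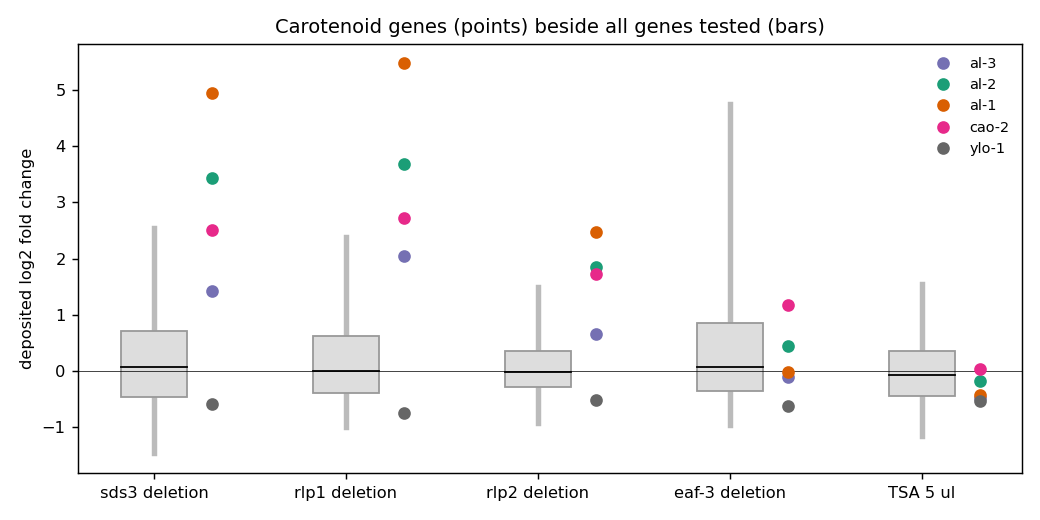
Deposited log2 fold changes of the 5 carotenoid genes (points) beside all genes tested in each comparison (box from the 25th to the 75th percentile, black line at the median, grey bar from the 5th to the 95th percentile). In the sds3 and rlp1 groups al-1 and al-2 lie above the 95th percentile of 2.55 and 2.38, as does cao-2 in rlp1. In the rlp2 group al-1, al-2 and cao-2 lie above that percentile, which is 1.49 there. In the eaf-3 group, where that percentile is 4.74, none of the 5 genes lies above it.

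The deletions were next compared with each other, to find which groups differ for a given gene. For each of 6 pairs the deposited log2 fold changes were subtracted and tested over all genes (normal test of the difference, two-sided, Benjamini-Hochberg adjustment over 9183 to 9256 genes). Both standard errors contain the spread of the shared wild type, which cancels in the difference, so the error given is too wide. Of 30 differences 14 passed. These differences reuse the same 4 fold changes of each gene and are not separate results. The share over all genes is given below for each pair.

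The sds3 and rlp1 groups did not differ detectably for any of the 5 genes, and none had an unadjusted p under 0.05. The difference sds3 minus rlp1 was -0.53 ± 0.59 for al-1 (interval -1.69 to 0.64), -0.25 ± 0.56 for al-2 (-1.34 to 0.85) and -0.61 ± 0.35 for al-3 (-1.31 to 0.08). For cao-2 it was -0.20 ± 0.27 (-0.73 to 0.33) and for ylo-1 0.15 ± 0.33 (-0.49 to 0.79). For al-1 the interval, from the error that is too wide, thus still holds differences as large as -1.69. With the shared wild type part reduced, its standard error was 0.42, and the difference still did not pass. Over all genes 5.23% were higher and 4.97% lower in sds3 than in rlp1.

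Between rlp1 and rlp2 the 3 genes al-1, al-3 and cao-2 differed, while 0.849% of all genes were higher in rlp1. The desaturase gene al-1 was higher in rlp1 by 2.99 ± 0.60 (adjusted p = 0.000179), or 7.94 times. The synthase gene al-3 was higher in rlp1 by 1.37 ± 0.35 (adjusted p = 0.0171), and the oxygenase gene cao-2 was higher by 1.00 ± 0.27 (adjusted p = 0.0319). For al-2 the difference of 1.82 ± 0.56 did not pass (adjusted p = 0.0897; interval 0.73 to 2.92). Between sds3 and rlp2, where 3.95% of all genes were higher in sds3, al-1 was higher by 2.46 ± 0.60 (adjusted p = 0.00169), with cao-2 higher by 0.80 ± 0.27 (adjusted p = 0.0479). The cao-2 call was lost when the differences were centred on their median over all genes. In this pair al-2 (1.58 ± 0.56, adjusted p = 0.0583) and al-3 (0.76 ± 0.35, adjusted p = 0.202) did not pass.

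Against the eaf-3 group the sds3 and rlp1 groups were higher for 4 of the 5 genes each. Over all genes 8.77% were higher in sds3 than in eaf-3, and 5.99% were higher in rlp1 than in eaf-3. For al-1 the difference was 4.95 ± 0.60 for sds3 (adjusted p = 2.84e-14) and 5.47 ± 0.60 for rlp1 (adjusted p = 2.06e-17). For al-2 it was 2.98 ± 0.56 (adjusted p = 3.55e-06) and 3.23 ± 0.56 (adjusted p = 4.71e-07), and for al-3 it was 1.53 ± 0.36 (adjusted p = 0.000312) and 2.14 ± 0.36 (adjusted p = 1.08e-07). The oxygenase gene cao-2, which had also risen in eaf-3, was higher in sds3 by 1.34 ± 0.27 (adjusted p = 2.57e-05) and in rlp1 by 1.54 ± 0.27 (adjusted p = 9.55e-07). Between rlp2 and eaf-3 the desaturase gene al-1 differed, by 2.49 ± 0.60 (adjusted p = 0.000887), where 2.73% of all genes were higher in rlp2. The differences of al-2 (1.40 ± 0.56, adjusted p = 0.0962), al-3 (0.77 ± 0.36, adjusted p = 0.18) and cao-2 (0.55 ± 0.27, adjusted p = 0.238) did not pass in this pair.

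For ylo-1 none of the 6 differences passed. They lay between -0.22 ± 0.33 for rlp1 minus rlp2 and 0.15 ± 0.33 for sds3 minus rlp1, and all intervals fell between -0.86 and 0.79. These bounds rest on the error that is too wide. With the shared wild type part reduced, the standard error of ylo-1 was 0.23 in each pair, and still none of the 6 differences passed.

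**Figure D4:**
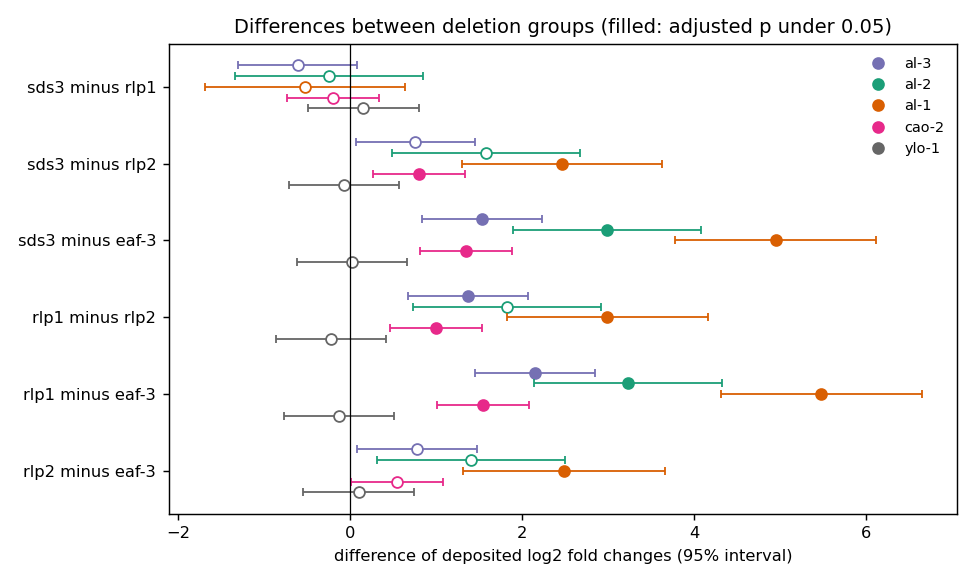
Log2 fold change of the first deletion minus that of the second, with the 95% interval, for the 6 pairs of deletions and the 5 carotenoid genes, filled points having an adjusted p under 0.05. The sds3 minus rlp1 points are all open, and al-1 is filled in the other pairs, from 2.46 to 5.47.

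In order of level, al-1 was thus highest in rlp1 and sds3, which did not differ detectably, lower in rlp2, and lowest in eaf-3 and wild type, which did not differ detectably either. For cao-2 the order was rlp1 and sds3, then rlp2 and eaf-3, which were not distinguished from each other, then wild type. For al-2 and al-3 no step between neighbouring groups passed the test, although rlp1 and sds3 differed from eaf-3. With the shared wild type part of the error reduced, al-2 and al-3 passed between sds3 and rlp2, al-2 passed between rlp1 and rlp2, and al-2, al-3 and cao-2 passed between rlp2 and eaf-3. A smaller error lets more of all genes pass as well, and that share is not given here. For ylo-1 wild type lay above each deletion group, and the step to rlp2, the next group in the order, was not past the threshold.

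The wider pathway was read from 3 lists, which like the 5 genes were chosen with earlier results of these data known. Of 5 genes, 4 of isoprenoid and sterol synthesis and the oxygenase gene cao-1, 1 fell in sds3, 1 rose and 1 fell in rlp1, 1 rose in rlp2, 2 rose in eaf-3 and 1 fell with TSA. Of all genes 15.7% fell in sds3, 14.6% rose and 8.61% fell in rlp1, 6.99% rose in rlp2, 20.2% rose in eaf-3 and 3.62% fell with TSA. The list medians were -0.44, -0.49, 0.29, 0.34 and -0.81 in the order sds3, rlp1, rlp2, eaf-3 and TSA, beside 0.07, 0.01, -0.01, 0.07 and -0.08 for all genes. The authors' deposited tables show that cao-1, whose product belongs to the oxygenase family of cao-2 and is known to cleave stilbenes, rose by 1.22 ± 0.35 in rlp1, 0.99 ± 0.35 in rlp2 and 1.68 ± 0.35 in eaf-3. In sds3, where cao-2 rose, the authors' deposited table lists cao-1 at -0.66 ± 0.36, which did not pass. The sterol gene erg-4 fell by 0.82 ± 0.26 in sds3 and by 0.91 ± 0.26 in rlp1 in the authors' deposited table. In the authors' deposited tables erg-3, which encodes a sterol reductase, rose in eaf-3 (1.57 ± 0.52) and erg-1 fell with TSA (-0.81 ± 0.25). The farnesyl diphosphate synthase gene fpp, named after its values were seen because it makes the precursor used by al-3, passed in no comparison. Its values in the authors' deposited tables were -0.41 ± 0.22 in sds3, -0.49 ± 0.22 in rlp1, -0.23 ± 0.22 in rlp2, -0.38 ± 0.22 in eaf-3 and -0.01 ± 0.26 with TSA.

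The light list held 18 measured genes. Beside genes of light perception and its regulators it counts bli-3, the blue-light-induced gene bli-4 and the hydrophobin gene eas. Of these 18 genes 6 rose in sds3, 10 in rlp1, 7 in rlp2 and 3 in eaf-3, and none fell in these 4 comparisons. The other genes of the list, 12 in sds3, 8 in rlp1, 11 in rlp2 and 15 in eaf-3, did not pass. Of all genes 19.0%, 14.6%, 6.99% and 20.2% rose in these comparisons, so that the count in eaf-3 was near the share over all genes. With TSA none rose or fell in the authors' deposited table, while 6 had an unadjusted p under 0.05. The medians of the light list were 0.71, 1.20, 0.52, 0.19 and -0.27, in the order sds3, rlp1, rlp2, eaf-3 and TSA, beside the all-gene medians given above. The blue-light-induced gene bli-4 rose by 5.66 ± 0.41 in sds3, 5.85 ± 0.41 in rlp1 and 3.18 ± 0.41 in rlp2, and stood at 0.26 ± 0.42 in eaf-3, in the authors' deposited tables. The photoreceptor gene vvd, which damps the light response, stood at 3.50 ± 0.40, 5.56 ± 0.40, 2.55 ± 0.40 and 0.85 ± 0.40 in the same order in the authors' deposited tables, the first 3 past the threshold. The 3 genes that rose in eaf-3 were phy-2, nop-1 and rco-1, at 2.76 ± 0.60, 1.86 ± 0.74 and 0.52 ± 0.17 in the authors' deposited table. These and the White Collar genes were named after their values were seen. The gene wc-1, which encodes the photoreceptor of that complex, rose by 1.26 ± 0.18 in sds3, 1.28 ± 0.18 in rlp1 and 0.61 ± 0.18 in rlp2, and stood at -0.38 ± 0.18 in eaf-3, in the authors' deposited tables. Its partner wc-2 did not pass in any of the 5 comparisons, with values from -0.25 ± 0.26 with TSA to 0.27 ± 0.26 in sds3 in the authors' deposited tables.

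Conidia could be present in a shaken culture and are pigmented, so 11 conidiation and conidial marker genes were read beside the carotenoid genes. Of these, 6 rose in sds3, 9 in rlp1, 4 in rlp2, 3 in eaf-3 and 1 with TSA, and none fell. Beside these counts, 19.0%, 14.6%, 6.99%, 20.2% and 5.15% of all genes rose, and the counts in eaf-3 and with TSA were near those shares. The medians of the 11 genes were 1.92, 2.29, 1.44, 0.38 and 0.57. The other markers, 5 in sds3, 2 in rlp1, 7 in rlp2, 8 in eaf-3 and 10 with TSA, did not pass. The conidiation gene con-8 rose by 3.60 ± 0.56 in sds3, 4.14 ± 0.56 in rlp1, 2.80 ± 0.56 in rlp2 and 2.97 ± 0.56 in eaf-3 in the authors' deposited tables. The authors' deposited tables show that fl, a regulator of conidiophore development, rose by 1.97 ± 0.38 in sds3, 1.80 ± 0.38 in rlp1 and 1.50 ± 0.38 in rlp2, and con-6 rose in sds3 (4.04 ± 0.65), rlp1 (3.15 ± 0.65) and eaf-3 (1.78 ± 0.65). The repressor gene csp-1, which with eas stands in both lists, rose by 3.05 ± 0.29, 2.29 ± 0.29 and 1.44 ± 0.29 in sds3, rlp1 and rlp2 in the authors' deposited tables. Named after their values were seen, ccg-1 rose in rlp2 (1.99 ± 0.58) and eaf-3 (2.86 ± 0.58), and con-10 was the gene that rose with TSA (2.44 ± 0.56), in the authors' deposited tables. Also named so, acon-3 stood at -1.67 ± 0.71, eas at -0.81 ± 0.91 and acon-2 at -0.44 ± 0.26 in eaf-3 in the authors' deposited table. None of them passed, and the other markers had fold changes above 0 on the log2 scale in eaf-3. The summed implied level of the 11 markers was 32201 in wild type, 74729 in eaf-3, 118069 in sds3, 130106 in rlp2 and 259158 in rlp1. This sum rests on the hydrophobin gene eas, which alone made up 219784 in rlp1. Without eas the sums were 11783 in wild type, 39374 in rlp1, 40604 in sds3, 41680 in rlp2 and 63051 in eaf-3, so that eaf-3 was highest. Without eas and ccg-1 they were 4135 in wild type, 7681 in eaf-3, 11265 in rlp2, 21192 in rlp1 and 24936 in sds3. Wild type was lowest in each of these sums, and the order of the deletions depended on the genes summed. None of the 11 markers was at 0 in any group, and the lowest, con-13, ran from 2.16 in rlp2 to 49.5 in rlp1. The part of the conidial markers in the carotenoid values was not tested, and in such bulk samples a change in the share of a cell type and a change of RNA per cell cannot be told apart.

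**Figure D5:**
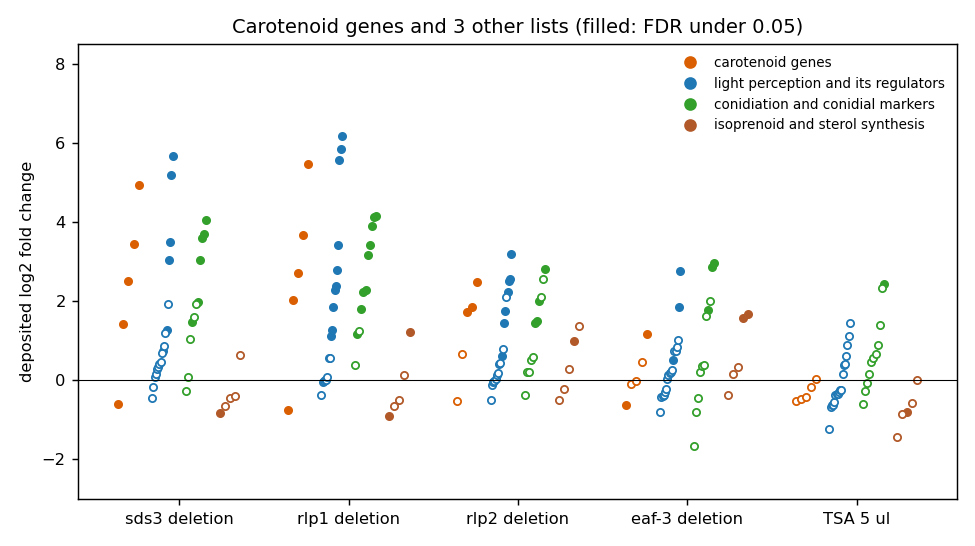
Deposited log2 fold changes in each comparison of the 5 carotenoid genes, 18 light genes, 11 conidial genes and 5 genes of the isoprenoid and sterol list. Filled points have an adjusted p under 0.05. The isoprenoid and sterol list includes the oxygenase gene cao-1, and csp-1 and eas stand in both the light and the conidial list. Light genes reach 6.16 and conidial genes 4.14 in the rlp1 group, while no light gene is filled for TSA.

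The genes whose 5 fold changes lay nearest to those of each member were found among 7979 genes with an average of at least 20, by Euclidean distance on the log2 scale over the 5 comparisons. For al-1 the nearest were the cryptochrome gene cry (distance 1.51), bli-4 (1.51) and vvd (1.68), which are all in the light list. The pathway gene al-2 ranked 6 for al-1, at a distance of 2.47, with cao-2 at rank 65, al-3 at 258 and ylo-1 at 6843 of 7978. The nearest to al-2 were NCU02190 (0.76), NCU05629 (1.05) and NCU04416 (1.13), and cao-2 ranked 16 at 1.54. Of the other members al-1 ranked 104, al-3 192 and ylo-1 6805 for al-2. The nearest to al-3 were NCU08378 (0.31), NCU04194 (0.51) and NCU04237 (0.52), while cao-2 ranked 1247, al-2 4031, ylo-1 6352 and al-1 7492. The nearest to cao-2 were NCU07413 (0.37), sah-1 (0.69) and NCU05534 (0.76), while al-2 ranked 78, al-3 270, al-1 2457 and ylo-1 6833. For ylo-1, whose values were small, the distances were 0.15 to NCU00181, 0.19 to NCU03911 and 0.20 to NCU07929. The other members ranked from 6828 (al-3) to 7825 (al-1) for ylo-1. Small fold changes give small distances, so these distances are not comparable between members. The 4 deletion values of a gene share their wild type libraries, and the distances are given as a description.

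The neighbours of the 5 genes were taken from the gene order in assembly NC12. Neither gene beside al-1 on linkage group I, NCU00553 and the myosin gene myo2, passed in any comparison, with values between -0.81 ± 0.37 and 0.44 ± 0.25 in the authors' deposited tables. On the same linkage group, with 35 genes between it and al-1, al-2 has ncw-6 on one side. The authors' deposited tables show that ncw-6 rose by 2.39 ± 0.59 in sds3 (adjusted p = 0.000426) and by 2.28 ± 0.59 in rlp1 (adjusted p = 0.00126) and stood at 1.17 ± 0.59 in rlp2. On its other side NCU00584 stood at -1.29 ± 0.37 in eaf-3 (adjusted p = 0.00309), a fall, and did not pass in the other authors' deposited tables. The cryptochrome gene cry lies beyond NCU00584, with 2 genes between it and al-2. It rose by 5.19 ± 0.49 in sds3, 6.16 ± 0.49 in rlp1 and 2.51 ± 0.49 in rlp2 in the authors' deposited tables.

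The gene models of al-3 and its neighbour NCU01426 on linkage group V overlap in NC12, and whether their reads were split by strand is not given in the sources used here. The authors' deposited tables show that NCU01426 rose by 0.99 ± 0.30 in rlp1 (adjusted p = 0.00669) and by 0.84 ± 0.30 in eaf-3 (adjusted p = 0.0205), while al-3 rose in sds3 and rlp1. On its other side NCU06636 passed in no comparison, with values from 0.05 ± 0.41 to 0.57 ± 0.41 in the authors' deposited tables. Beside ylo-1 on linkage group VI, NCU04014 fell in rlp1 (-0.60 ± 0.19, adjusted p = 0.0114 in the authors' deposited table), and NCU04012 was too low to read, at an average of 0.575 in the deletion tables.

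The oxygenase gene cao-2 is gene 2 of 1047 from one end of linkage group VII. The outermost gene, NCU09306, rose in eaf-3 by 2.02 ± 0.27 (adjusted p = 8.5e-12) and fell in rlp1 by 1.42 ± 0.31 (adjusted p = 7.54e-05) in the authors' deposited tables. On the inner side NCU09305 rose in eaf-3 by 1.96 ± 0.47 (adjusted p = 0.000295) and in rlp2 by 1.36 ± 0.47 (adjusted p = 0.0396) in the authors' deposited tables. All 3 genes at this end rose in eaf-3, in a comparison where 20.2% of genes rose. In sds3 and rlp1, where cao-2 rose most, neither neighbour rose: NCU09305 stood at 0.48 ± 0.49 and 0.89 ± 0.48, and NCU09306 at -0.47 ± 0.30 in sds3, in the authors' deposited tables. With TSA these neighbours stood at -0.82 ± 0.55 (NCU09306) and -0.57 ± 0.45 (NCU09305) in the authors' deposited table. The other 4 members lie far from chromosome ends, with at least 373 genes between them and the nearer end.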

How the data were processed

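Per the submitters' processing notes, the tools were DESeq2 1.24.0, RSEM 1.3.1 and STAR 2.7.3a. The role of each, the genome build and any use of strand in counting were not given in those notes or the other sources used here. The library kit keeps strand, per the labels' protocols. Per the file headers, the columns of the 5 deposited tables are average signal, log2 fold change, p-value, FDR (the adjusted p) and a category score. The deposited score marked genes with an adjusted p under 0.05 whose log2 fold change exceeded 2 in size. No gene had a deposited log2 fold change of 0 in all 4 deletion tables (0 genes), whereas 20 genes of the TSA table had one of 0 with an average above 0, so the average of the deletion tables was read as the mean over its 10 libraries and that of the TSA table was not used for group levels.

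Standard errors were the absolute log2 fold change over the normal quantile of the deposited p-value. Library totals are unknown, as 0 columns give single libraries. Differences between deletions were computed in Python 3.11.15 with scipy 1.17.1 and tested on simulated data. Of 9552 identifiers 9551 matched assembly NC12, used for symbols, gene order and lengths. No list symbol but orp-1 was unmatched. Named genes were the 5 members, the 3 nearest genes of each, adjacent genes, deleted genes and, of each list, up to 4 genes called in most comparisons; exceptions are stated. Members and lists were chosen with earlier results of these data known. Sequences were not analysed here.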

Additional observations from a re-analysis of the deposited data

How the results depend on the processing

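Of the values of single carotenoid genes under the alternatives tried, 226 kept direction and side of the threshold, 13 lost the call, 6 gained it and none reversed. With the cut of the authors (adjusted p under 0.05 and absolute log2 fold change over 2) the genes called were 3 in sds3, 1 in rlp2 and 0 in eaf-3. With an adjusted p under 0.01 the eaf-3 count was 1, the ylo-1 falls in sds3 and eaf-3 being lost, sds3 against rlp2 gave 1 and rlp1 against rlp2 gave 1. With 1/2 of the smaller squared standard error, as the shared wild type part, removed from both, sds3 against rlp2 gave 4 and rlp2 against eaf-3 gave 4. Centred on the median of all genes, sds3 against rlp2 gave 1. These settings differ in threshold or error by construction. Of these settings, the share of all genes called is given above for the cut of the authors only. The counts under the other settings thus cannot be set against all genes. No paired analysis was possible because the tables hold no values per library, and leaving out a replicate was not run for the same reason. The unknown depth limits what can be said of single groups.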
